A study of Mus musculus with 18 samples.

Results

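The CXC chemokines are small secreted or membrane-anchored proteins that steer white blood cells along a gradient. Their genes were followed in liver from wild-type C57BL/6 mice. The 9 genes described here, Cxcl1, Cxcl2, Cxcl5, Cxcl9, Cxcl10, Cxcl12, Cxcl13, Cxcl14 and Cxcl16, were taken by symbol from the 56691 genes of the expression table, and each was found there once. Sham mice (6 libraries) were anesthetized and opened without clamping. In the IR group (6 libraries) a clip on the portal triad cut the blood supply of about 70% of the liver for 1 h, followed by reperfusion for 6 h. The IR-Ori group (6 libraries) had the same operation and received oridonin, a diterpenoid from a herb of the genus Isodon. How oridonin was dosed and timed, what the other groups received in its place, and the sex and age of the mice are not given in the sources. Nor is it stated that each library is 1 mouse, so p-values measure the spread between these libraries, which may be partly technical.

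CXC chemokines are named for a pair of cysteines with 1 other residue between them. Members that carry an ELR motif before the first cysteine, among them Cxcl1, Cxcl2 and Cxcl5, bind Cxcr2 and draw neutrophils, which enter the liver within hours of reperfusion. Cxcl9 and Cxcl10 are induced by interferons and draw T and NK cells through Cxcr3, while Cxcl12, Cxcl13 and Cxcl14 are made without injury in many tissues. NF-kB, a transcription factor switched on by Il1b, Tnf and microbial products, is a known inducer of the ELR members.

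All 18 libraries held between 12449529 and 19798188 counts. The share of counts on mitochondrially encoded genes was 19.2 ± 12.99% in IR, 21.9 ± 12.9% in sham and 27.1 ± 6.60% in IR-Ori (mean ± SD over 6 libraries). It lay under 15% in 3 sham, 3 IR and 1 IR-Ori libraries, and no pair of groups differed beyond the spread (two-sided exact permutation tests; the lowest p, 0.212, was that of IR-Ori and IR). Levels are given as FPKM, a count scaled by gene length and by the library's total. A larger mitochondrial share leaves a smaller part of that total to the nuclear genes together, though a single gene can still rise. The 5 hepatocyte markers found in the table summed to between 13474 and 45834 FPKM in every library, and 0 of them passed the test in any comparison.

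Of the 9 genes, 6 lie on mouse chromosome 5 (GRCm39), in 3 stretches. Cxcl5 (ENSMUSG00000029371, 90907219 to 90909483, plus strand) lies in the first, with Cxcl1 (ENSMUSG00000029380, 91039100 to 91040974, plus) and Cxcl2 (ENSMUSG00000058427, 91051730 to 91053797, plus), whose ends are 10.76 kb apart. Cxcl9 (ENSMUSG00000029417, 92469206 to 92475938, minus) and Cxcl10 (ENSMUSG00000034855, 92494497 to 92496748, minus) are separated by 18.56 kb in the second. Cxcl13 (ENSMUSG00000023078, 96104810 to 96108927, plus) stands alone on the same chromosome. Cxcl12 (ENSMUSG00000061353) is on chromosome 6 (117145496 to 117158328, plus), Cxcl14 (ENSMUSG00000021508) on chromosome 13 (56436456 to 56444364, minus) and Cxcl16 (ENSMUSG00000018920) on chromosome 11 (70344809 to 70350810, minus). All 9 are protein-coding in the annotation.

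The 250 bases before the start site are shown for Cxcl1 and Cxcl2, neighbours whose levels parted in these libraries, for Cxcl10, and for Cxcl9, the neighbour of Cxcl10 that passed no test. They come from RefSeq on the older build GRCm38.p6, which had entries for 7 of the 9 genes and none for Cxcl5 and Cxcl16. Positions are chr5:90890995-90891244 (plus strand) for Cxcl1, chr5:90903649-90903898 (plus) for Cxcl2, chr5:92328080-92328329 (minus) for Cxcl9 and chr5:92348890-92349139 (minus) for Cxcl10. Each reads 5′ to 3′ on the gene's strand and ends at the last base before the start. Capitals mark letters covered by a match to the NF-kB (kB) consensus on either strand.
Cxcl1: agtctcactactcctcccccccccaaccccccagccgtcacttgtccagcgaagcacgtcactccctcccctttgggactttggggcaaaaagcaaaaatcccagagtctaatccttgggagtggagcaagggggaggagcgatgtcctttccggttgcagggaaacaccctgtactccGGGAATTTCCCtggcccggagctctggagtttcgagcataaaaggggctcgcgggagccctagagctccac
Cxcl2: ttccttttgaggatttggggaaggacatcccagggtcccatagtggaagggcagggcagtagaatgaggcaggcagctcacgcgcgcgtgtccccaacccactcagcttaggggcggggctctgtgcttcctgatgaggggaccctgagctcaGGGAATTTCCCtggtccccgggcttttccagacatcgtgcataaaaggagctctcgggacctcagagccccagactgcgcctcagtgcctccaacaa
Cxcl9: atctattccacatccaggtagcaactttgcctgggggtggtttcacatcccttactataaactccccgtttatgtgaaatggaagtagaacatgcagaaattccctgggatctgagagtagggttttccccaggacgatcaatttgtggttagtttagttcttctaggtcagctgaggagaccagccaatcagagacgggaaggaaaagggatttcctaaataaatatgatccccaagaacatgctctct
Cxcl10: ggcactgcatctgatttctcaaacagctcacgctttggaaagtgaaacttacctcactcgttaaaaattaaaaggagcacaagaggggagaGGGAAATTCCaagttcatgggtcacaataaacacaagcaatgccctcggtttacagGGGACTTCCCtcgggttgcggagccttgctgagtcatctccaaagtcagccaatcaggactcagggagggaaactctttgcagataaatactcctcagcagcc

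Cxcl1 and Cxcl2 held the same run, GGGAATTTCC, on the plus strand of the gene, 71 to 62 bases before the start in Cxcl1 and 97 to 88 in Cxcl2. Read from the Cxcl1 promoter and then searched on both strands, the run was in 28 of 32851 promoters of this length (0.085%). It was also in Cxcl3, a further ELR member outside the 9 genes, at 73 to 64 bases before its start. The matches on the opposite strand in these genes overlap the same letters. Cxcl10 held 2 kB matches, GGGAAATTCC at 159 to 150 bases and GGGACTTCCC at 103 to 94 bases before the start. The consensus was thus in 3 of 7 promoters of the 9 genes, beside 3.899% of all promoters, and Cxcl9, Cxcl12, Cxcl13 and Cxcl14 had no match in this window. Cxcl1 and Cxcl2 are neighbouring, related copies with the same run, so their matches are not independent of each other. An interferon-type pattern, a pair of GAAA blocks with any 2 bases between them, was found in Cxcl10 (GAAAGTGAAA, 213 to 204 bases before the start) and Cxcl14 (GAAACAGAAA, 172 to 163), beside 2.977% of all promoters. The AP-1 type run TGANTCA was found in Cxcl10 (TGAGTCA, 74 to 68) and in 6.749% of all promoters. These are matches of letters and not measured binding sites.

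The comparison of IR with sham asks what ischemia and reperfusion did to the liver. Cxcl2, Cxcl10 and Cxcl14 rose and Cxcl12 fell (edgeR quasi-likelihood F test, Benjamini-Hochberg adjusted p under 0.05 over 14595 genes). These are 3 of the 8 members tested, beside 5.52% of all genes tested that were called higher, and 1 of 8, beside 2.36% called lower. Cxcl5 was too low in most libraries to enter the test. The median log2 fold change of the 8 was 1.20, and that of all genes tested was 0.0032. The members and the gene lists below were chosen with earlier results of these data known. A share or median beyond that of all genes is therefore a description and no test of a set. Cxcl2 and Cxcl10 were 2 tested members whose IR libraries all lay above all sham libraries in FPKM, which held for 2.04% of the genes tested.

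The comparison of IR-Ori with IR asks what oridonin changed in the injured liver. Cxcl2, Cxcl10 and Cxcl14 fell, 3 of 8 members, beside 3.01% of all genes tested that were called lower. None of the 8 was called higher, beside 0.596% of all genes. The median log2 fold change of the 8 was -1.11, and that of all genes tested was -2e-04. Among the tested members, the libraries of the 2 groups did not overlap for Cxcl2, as for 1.1% of all genes. Both comparisons contain the same 6 IR libraries, and the way the members were chosen limits both alike.

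IR-Ori and sham were compared to ask how far the treated liver stood from the uninjured one. No member was called, and neither was any of the 14595 genes (0%). Without adjustment, edgeR gave a p under 0.05 for Cxcl1 and Cxcl2, as for 10% of all genes. DESeq2 called 34 genes higher and 4 lower after adjustment and limma none, with no member among them. Median log2 fold change was 0.07 for the 8 members and -0.0122 for all genes.

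**Figure D1:**
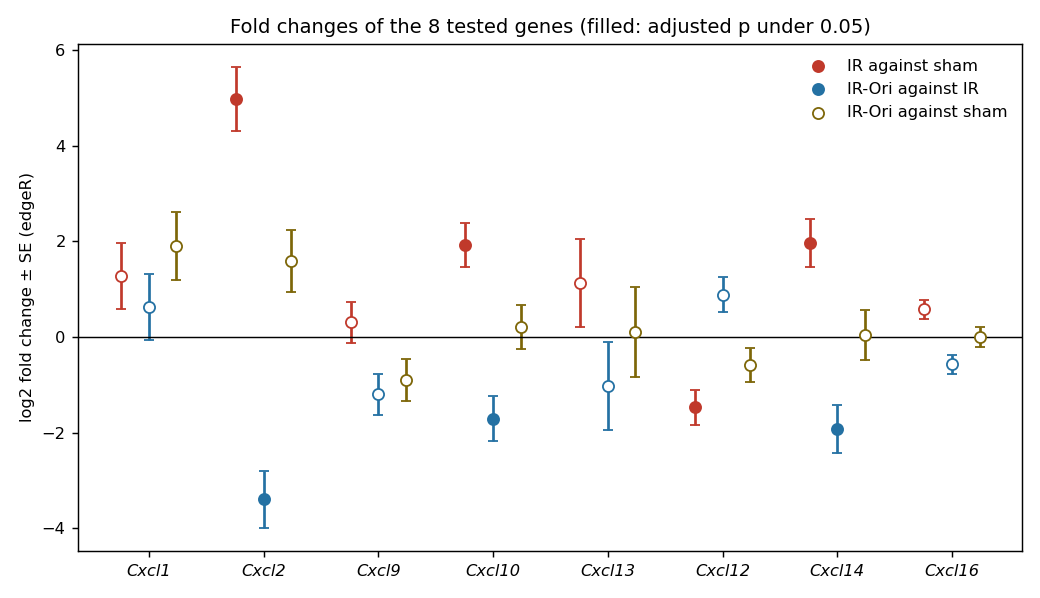
Log2 fold changes from edgeR with standard errors (vertical axis) for the 8 tested members (horizontal axis) in the 3 comparisons. Filled points passed an adjusted p of 0.05. Cxcl2, at 4.98 in IR against sham and -3.39 in IR-Ori against IR, lies farthest from 0 of the 8 in both, and no point of IR-Ori against sham is filled.

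Cxcl1, known as KC, was the most abundant member by FPKM in the mean of every group. Sham libraries ran from 15.57 to 155.03 FPKM with a median of 36.1. IR libraries ran from 46.6 to 270.77 (median 143) and IR-Ori libraries from 36.73 to 479.3 (median 172). The groups overlapped widely, and IR-Ori held the 2 highest libraries of all 18, IR-Ori 2 at 453.38 and IR-Ori 3 at 479.3. Cxcl1 gave a log2 fold change of 1.28 ± 0.70 (SE) in IR against sham (adjusted p = 0.2777). In IR-Ori against IR it was 0.62 ± 0.69 (adjusted p = 0.59), and in IR-Ori against sham 1.898 ± 0.71 (adjusted p = 0.4924). None of these passed the test, and the spread between libraries of 1 group covered the differences in mean.

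Inside the IR and sham groups, libraries with a mitochondrial share of at least 15% had more Cxcl1 than those under it. IR 1, 2 and 3, with shares of at least 15%, stood at 192.37 to 270.77 FPKM, and IR 4, 5 and 6 at 46.6 to 93.9. The 3 sham libraries with the larger shares stood at 36.85 to 155.03 FPKM and the other 3 at 15.57 to 35.31. By the same split, the 1 IR-Ori library under 15%, IR-Ori 5, was the lowest of its group. Among libraries of at least 15%, Cxcl1 did not follow the share in any group. Sham 2, at 42.8%, stood at 94.99 FPKM and sham 6, at 27.0%, at 155.03. IR 1, at 42.9%, stood at 244.51 and IR 3, at 19.5%, at 270.77. IR-Ori 6, with the largest share of its group (32.0%), stood at 45.02 FPKM, near IR-Ori 5 at 36.73 with the smallest (14.1%), while IR-Ori 2 and 3, at 31.0 and 29.1%, held the 2 highest levels. With the share added to the model, Cxcl1 rose by 0.93 on the log2 scale for each 10 percentage points (edgeR, adjusted p = 0.00548), where 19.9% of all genes were called higher and 23% lower with a larger share. In that model Cxcl1 stood at a log2 fold change of -0.02 in IR-Ori against IR (adjusted p = 0.9904). The other 7 tested members were not called for the share.

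Cxcl2, known as MIP-2, is another Cxcr2 ligand, encoded next to Cxcl1. Sham libraries lay between 0 and 0.52 FPKM (median 0.12), with 0 counts in sham 1. IR libraries lay between 4.3 and 11.07 FPKM (median 6.14), the highest being IR 4, and IR-Ori libraries between 0.04 and 1.17 (median 0.66). Every IR library was above every library of both other groups, while sham and IR-Ori overlapped. Cxcl2 rose by a log2 fold change of 4.98 ± 0.67 (SE) in IR against sham, 31.6-fold (adjusted p = 0.0005394). It fell by 3.39 ± 0.60 on the log2 scale in IR-Ori against IR, a level 10.5-fold lower (adjusted p = 0.005696). IR-Ori against sham gave 1.59 ± 0.65 (adjusted p = 0.4977). Both calls held when any 1 library was left out. In libraries with a share of at least 15% (3 sham, 3 IR and 5 IR-Ori), Cxcl2 was at 3.80 in IR against sham (adjusted p = 0.07908) and -2.87 in IR-Ori against IR (adjusted p = 0.06172), and passed neither test. Of the 14847 genes tested in these libraries, 14 and 15 were called in the 2 comparisons. In libraries under 15% it was called in IR against sham, and was at -5.19 in IR-Ori against IR (adjusted p = 0.06491), where IR-Ori has 1 library.

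Set beside each other in a library, the neighbouring ELR genes parted. The FPKM of Cxcl1 was 5.42 to 62.97 times that of Cxcl2 in the IR libraries (median 20.7). In IR-Ori it was 167 to 1126 times (median 355), and in the 5 sham libraries with a Cxcl2 count 70.9 to 1107 times (median 194). The highest of these rest on few reads, 1 Cxcl2 count in IR-Ori 6 and 5 in sham 6, and are poorly measured. The next highest IR-Ori ratio was 428, and that in sham 441, itself from 3 counts. The ratios of IR overlapped with neither of the other groups. In 3 libraries, IR 4, IR 5 and IR 6, Cxcl1 was under 10 times Cxcl2, and these were IR libraries with mitochondrial shares under 15%. The ratio is a description with no test. IR-Ori 2 and IR-Ori 3, highest of all libraries in Cxcl1, were at 1.06 and 1.17 FPKM of Cxcl2, below the lowest IR library at 4.3. Both promoters carry the same kB run shown above, and whether it bears on these levels was not tested.

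**Figure D2:**
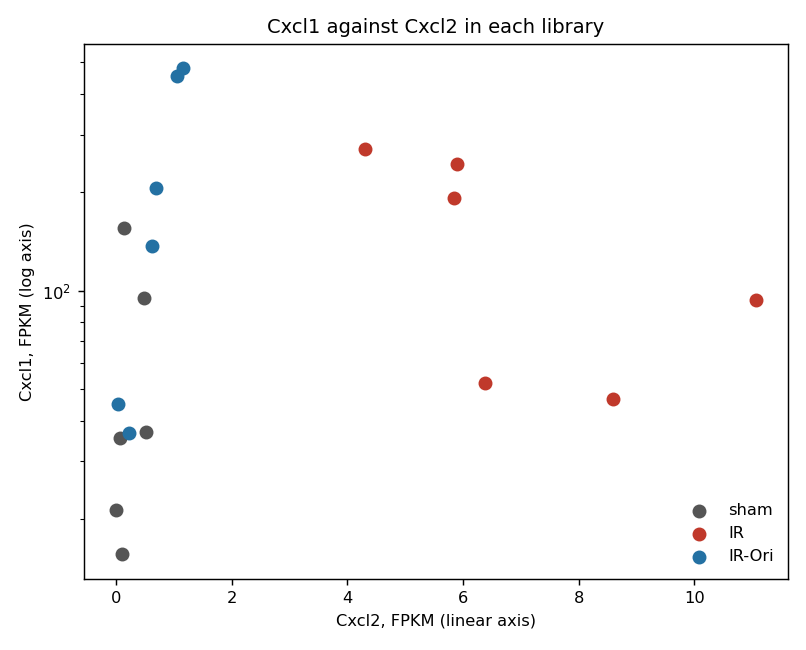
FPKM of Cxcl1 (vertical, log axis) against FPKM of Cxcl2 (horizontal, linear axis), 1 point for each of the 18 libraries, coloured by group. The IR libraries lie at 4.3 or more of Cxcl2 and the libraries of both other groups at 1.17 or less, while Cxcl1 overlaps among the 3 groups.

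Cxcl5, known as LIX, is the third Cxcr2 ligand among the 9 genes and the lowest of the 9 by mean FPKM in every group. Each sham library held 0 or 1 count (0 to 0.04 FPKM), against 10 to 50 in IR libraries (0.34 to 2.16 FPKM) and 0 to 8 in IR-Ori libraries (0 to 0.31 FPKM). All IR libraries were above all others, by a narrow margin over IR-Ori 1 at 0.31 FPKM. Summed over libraries, 184 counts in IR against 2 in sham gave a ratio per total count of 100.5 (95% exact interval 27.4 to 836, counting error alone). Against the 18 counts of IR-Ori the ratio was 9.74 (5.99 to 16.8). Without the low-count filter, edgeR called Cxcl5 higher in IR against sham (adjusted p = 0.0001391, where 2.66% of 30479 genes were called higher) and lower in IR-Ori against IR (adjusted p = 0.01047, where 1.54% were called lower). In IR-Ori against sham it was not called (adjusted p = 0.5395).

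Cxcl3, an ELR ligand encoded between Cxcl5 and Cxcl1 on chromosome 5, was likewise under the filter, with 143 counts summed over IR, 6 over sham and 7 over IR-Ori. IR 1 held 73 of the 143. Its ratio was 26.0 (11.7 to 72.1) for IR over sham and 19.5 (9.21 to 49.3) for IR over IR-Ori. Without the filter it was called higher in IR (adjusted p = 0.001995) and lower in IR-Ori against IR (adjusted p = 0.006473). Cxcl1, Cxcl2 and Cxcl3 are related copies, and how the authors' counting treated reads that fit several copies is not stated. Of the other ligands tested, Pf4 and Ppbp, both platelet chemokines, and Cxcl11, none was called in any comparison. At an unadjusted p under 0.05 edgeR gave 1 of these 3 in IR against sham, Cxcl11 (log2 fold change -1.18), which the annotation lists as a polymorphic pseudogene. At least 3310 of the 14595 genes tested had such a p in that comparison, so the 1 of 3 is not read as a result. Cxcl15 and Cxcl17 held at most 8 counts summed over any group.

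Cxcl10, an interferon-induced ligand of Cxcr3 also known as IP-10, stood at 0.83 to 1.33 FPKM in sham (median 1.15). IR libraries ran from 1.93 to 8.31 FPKM (median 3.94), and IR-Ori libraries from 0.57 to 3.95 (median 0.75). Every IR library was above every sham library. In IR-Ori, 5 libraries lay at 0.57 to 0.87 FPKM, under all IR libraries, and IR-Ori 3 lay at 3.95, above 3 of them. Cxcl10 rose by 1.92 ± 0.46 (SE) on the log2 scale in IR against sham (adjusted p = 0.01636) and fell by 1.70 ± 0.46 in IR-Ori against IR (adjusted p = 0.0452). The first call was lost without IR 4 (adjusted p = 0.05227). The second was lost in 8 of 12 fits that left out 1 library (IR 4, 5 or 6, or IR-Ori 1, 2, 4, 5 or 6), with adjusted p up to 0.1342. Without IR-Ori 3 it was at -2.51 (adjusted p = 0.001462). In IR-Ori against sham Cxcl10 was at 0.22 ± 0.46 (adjusted p = 0.8604), a sign that turned without IR-Ori 3 (-0.64).

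Cxcl9, the neighbouring interferon-induced Cxcr3 ligand, passed no test. Sham libraries ran from 0.6 to 2.79 FPKM (median 1.92), IR libraries from 0.62 to 4.9 (median 2.28) and IR-Ori libraries from 0.52 to 1.67 (median 0.905). The 3 groups overlapped, with the highest library in IR and the lowest in IR-Ori. The log2 fold changes of Cxcl9 were 0.31 ± 0.43 in IR against sham (adjusted p = 0.7139), -1.20 ± 0.44 in IR-Ori against IR (adjusted p = 0.1131) and -0.89 ± 0.44 in IR-Ori against sham (adjusted p = 0.4983). Without IR 2 the value in IR-Ori against IR was -1.40 (adjusted p = 0.04467). Whether Cxcl9 and Cxcl10 differ in their response was not tested.

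Cxcl12, also SDF-1, holds blood cell precursors and lymphocytes in tissues through Cxcr4. It was the second member by mean FPKM in every group. Sham libraries ran from 20.89 to 59.52 FPKM (median 29.8), IR libraries from 9.11 to 22.23 (median 12.4) and IR-Ori libraries from 12.1 to 55.4 (median 20.4). IR libraries lay below sham apart from IR 3 at 22.23, which exceeded sham 2 at 20.89. In IR-Ori, libraries 2, 3 and 4 stood at 12.1 to 13.85 FPKM and the others at 26.96 to 55.4. Cxcl12 fell by 1.47 ± 0.37 (SE) on the log2 scale in IR against sham (adjusted p = 0.01979), to 2.77-fold less. That call was lost without sham 4 (adjusted p = 0.05001), without IR 4 (0.0522) and without IR 5 (0.05374). IR-Ori against IR gave 0.89 ± 0.36 (adjusted p = 0.1486) and IR-Ori against sham -0.58 ± 0.36 (adjusted p = 0.5218).

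Cxcl13 draws B cells to lymphoid follicles through Cxcr5. IR libraries ran from 0 to 7.76 FPKM (median 1.06), sham libraries from 0.07 to 3.3 (median 0.5) and IR-Ori libraries from 0.19 to 3.88 (median 0.6). The highest library was IR 6, IR 3 held 0 counts, and the groups overlapped. The log2 fold change was 1.13 ± 0.92 in IR against sham (adjusted p = 0.4966) and -0.0031 without IR 6. It was -1.02 ± 0.92 in IR-Ori against IR (adjusted p = 0.5021; 0.11 without IR 6) and 0.11 ± 0.94 in IR-Ori against sham (adjusted p = 0.9684).

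Cxcl14, made by epithelia and other resting tissues, was low in all libraries. Sham libraries lay between 0.08 and 0.57 FPKM (median 0.3), IR libraries between 0.27 and 2.45 (median 1.15) and IR-Ori libraries between 0.2 and 0.6 (median 0.265). Of the IR libraries, 5 were above every library of both other groups, and IR 1 at 0.27 lay within them. Cxcl14 rose by 1.97 ± 0.50 (SE) on the log2 scale in IR against sham (adjusted p = 0.0204) and fell by 1.93 ± 0.50 in IR-Ori against IR (adjusted p = 0.03675). The rise was lost without IR 5 (adjusted p = 0.0584). The fall was lost in 7 of 12 fits that left out 1 library (IR 4, 5 or 6, or IR-Ori 1, 3, 4 or 6), with adjusted p up to 0.1031. IR-Ori against sham gave 0.04 ± 0.52 (adjusted p = 0.9802), with a sign that turned when sham 2, sham 3, IR-Ori 2 or IR-Ori 6 was left out.

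Cxcl16 is a membrane-anchored ligand of Cxcr6 that also takes up oxidized lipoproteins and is shed by Adam10. Sham libraries ran from 0.93 to 1.47 FPKM (median 1.13), IR libraries from 1.32 to 2.39 (median 1.83) and IR-Ori libraries from 0.77 to 1.66 (median 1.16). IR overlapped with both other groups at its lower end. Cxcl16 was at 0.58 ± 0.20 (SE) in IR against sham (adjusted p = 0.08742) and at -0.57 ± 0.20 in IR-Ori against IR (adjusted p = 0.1079), and passed neither test with edgeR. DESeq2 gave an adjusted p of 0.03949 in IR against sham, where it called 7.63% of the genes higher. IR-Ori against sham was at 0.01 ± 0.21 (adjusted p = 0.9916).

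**Figure D3:**
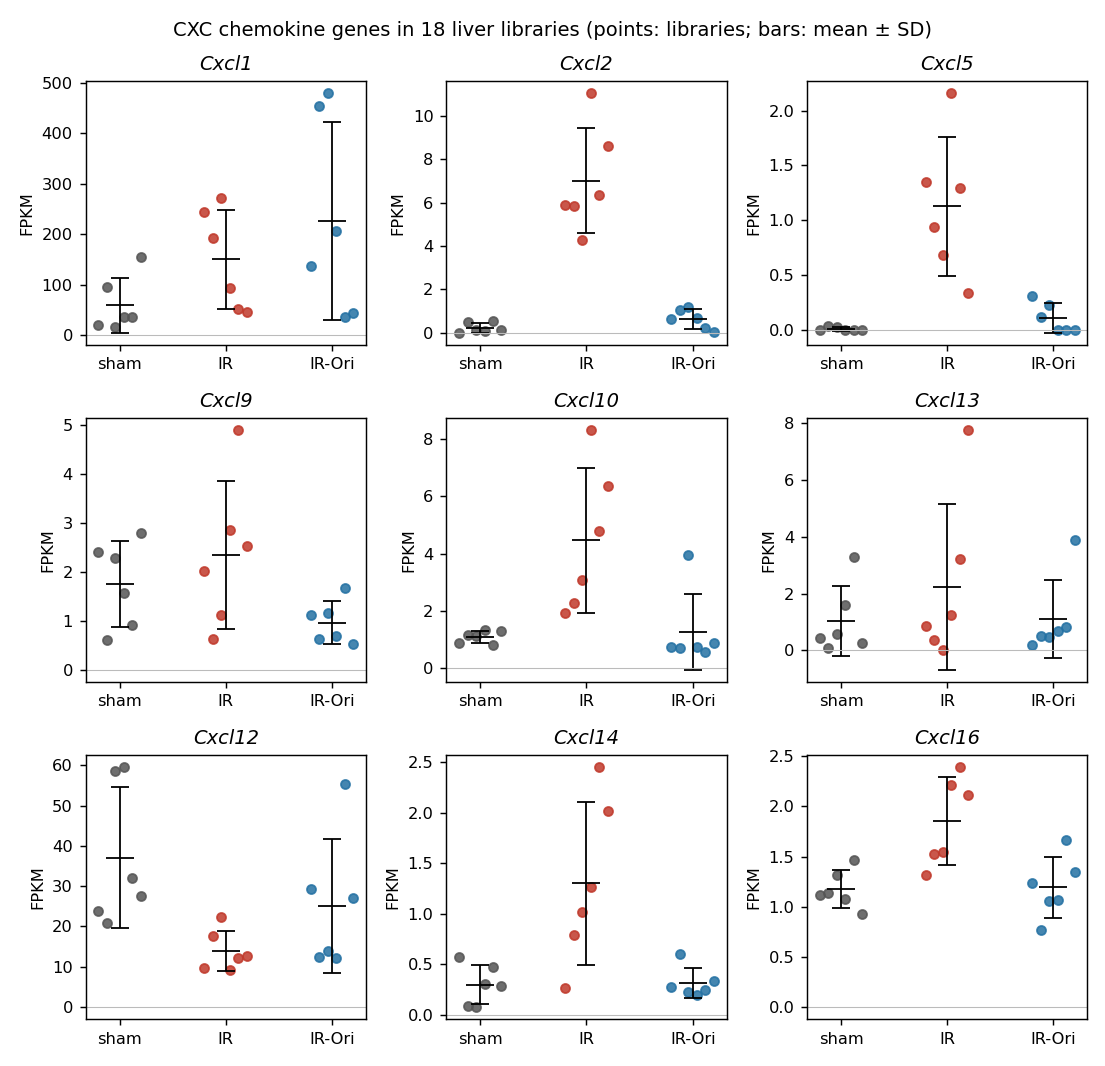
FPKM of the 9 genes (vertical axis of each panel, linear) in the 3 groups (horizontal axis). Points are libraries, and bars are the mean and SD of 6 libraries. IR libraries stand apart from both other groups in Cxcl2, at 4.3 to 11.07 FPKM, and in Cxcl5, at 0.34 to 2.16, while Cxcl1 spreads from 36.73 to 479.3 in IR-Ori.

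By mean FPKM, Cxcl1 and Cxcl12 led in every group and the order of the other members shifted. In sham, Cxcl1 (59.8 ± 54.5 FPKM, mean ± SD, n = 6) and Cxcl12 (37.1 ± 17.4) overlapped, and every Cxcl12 library was above all libraries of the members after it. Cxcl9 (1.76 ± 0.875), Cxcl16 (1.18 ± 0.190), Cxcl10 (1.11 ± 0.210) and Cxcl13 (1.04 ± 1.23) did not differ beyond their spread. They were followed by Cxcl14 (0.302 ± 0.197), Cxcl2 (0.222 ± 0.224) and Cxcl5 (0.012 ± 0.018), each overlapping with the one before it. In IR, Cxcl1 (150.04 ± 98.7) was above every Cxcl12 library (13.9 ± 5.08), and Cxcl2 (7.02 ± 2.42) moved from the eighth place to the third. Cxcl2 overlapped with Cxcl12 above it and with Cxcl10 (4.46 ± 2.52) below it, and the other 5, at means of 1.13 to 2.34 FPKM, overlapped among themselves. In IR-Ori, Cxcl2 (0.635 ± 0.446) was in the seventh place, and Cxcl1 (226 ± 196) and Cxcl12 (25.0 ± 16.7) again overlapped. Within single libraries, Cxcl1 was the highest of the 9 in 3 of 6 sham, 6 of 6 IR and 5 of 6 IR-Ori libraries.

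Inside the IR group, other members split at a mitochondrial share of 15% the opposite way to Cxcl1. They are given in FPKM, where a larger share leaves less of the library's total to the nuclear genes together. IR 4, 5 and 6, with shares under 15%, stood at 4.79 to 8.31 FPKM of Cxcl10, and IR 1, 2 and 3 at 1.93 to 3.09. For Cxcl14 the same libraries stood at 1.27 to 2.45 and 0.27 to 1.02 FPKM, for Cxcl16 at 2.11 to 2.39 and 1.32 to 1.55, and for Cxcl13 at 1.26 to 7.76 and 0 to 0.85. Cxcl2 split in the same way, at 6.38 to 11.07 and 4.3 to 5.89 FPKM, as did Cxcl9, at 2.54 to 4.9 and 0.62 to 2.01. Cxcl5 and Cxcl12 overlapped across the split. With the share in the model, IR-Ori against IR gave -1.55 for Cxcl10 (adjusted p = 0.09798) and -1.35 for Cxcl14 (adjusted p = 0.1421), neither called, and Cxcl2 remained called. Among libraries with a share of at least 15%, no member passed in either comparison with IR. Few genes of any kind did, 14 of 14847 in IR against sham and 15 in IR-Ori against IR. What the mitochondrial share reflects was not tested.

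**Figure D4:**
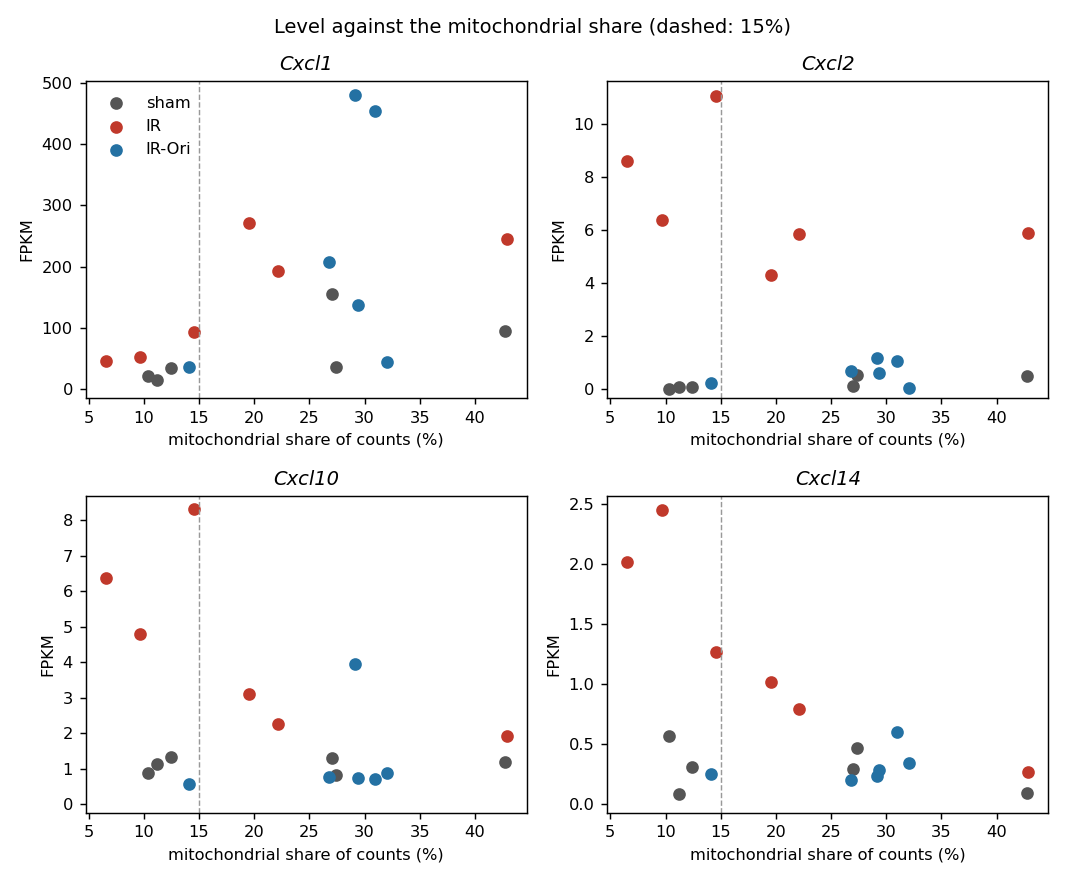
FPKM of Cxcl1, Cxcl2, Cxcl10 and Cxcl14 (vertical axes, linear) against the mitochondrial share of counts in percent (horizontal axes), 1 point for each library, coloured by group. The dashed line stands at 15%. IR libraries right of it lie at 192.37 to 270.77 for Cxcl1, above those left of it, and at 1.93 to 3.09 for Cxcl10, below those left of it.

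Of the 9 receptors listed, 5 could be tested, and 1 rose in IR, beside 5.52% of all genes tested. Cxcr2, the receptor of Cxcl1, Cxcl2 and Cxcl5 on neutrophils, lay at 0.02 to 0.43 FPKM in sham (median 0.09), 1.03 to 2.37 in IR (median 1.47) and 0.06 to 1.27 in IR-Ori (median 0.715). IR was above all sham libraries and overlapped with IR-Ori. Cxcr2 rose by 3.21 ± 0.68 (SE) on the log2 scale (adjusted p = 0.008202). In IR-Ori against IR it was at -1.11 ± 0.61 (adjusted p = 0.2634), and in IR-Ori against sham at 2.10 ± 0.68 (adjusted p = 0.4457). Cxcr4, the receptor of Cxcl12, was at 1.21 in IR against sham (adjusted p = 0.108) and -0.44 in IR-Ori against IR (adjusted p = 0.5442). Ackr3, a scavenging receptor of Cxcl12, was at 1.32 (adjusted p = 0.1121) and -1.44 (adjusted p = 0.1064). Ackr1 and Ackr4, which bind chemokines without signalling, were not called in any comparison, and Cxcr1, Cxcr3, Cxcr5 and Cxcr6 were too low to test, at no more than 39 counts summed over a group. No receptor was called in IR-Ori against IR.

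Markers of cells that carry these receptors also changed. All 7 tested neutrophil markers of the 11 listed rose in IR against sham, beside 5.52% of all genes tested, and 3 of the 7 fell in IR-Ori against IR, beside 3.01%. The same shares of all genes stand beside the other marker counts of these comparisons. The summed FPKM of the 11 ran from 67.4 to 306 in IR, from 7.62 to 62.2 in IR-Ori and from 3.83 to 26.0 in sham, and it was highest in IR 4, which also led Cxcl2, Cxcl5 and Cxcl10. Ly6g, Ngp, Camp and Ltf, granule or surface genes of mature neutrophils and their precursors, stayed at or under 0.34 FPKM in every library and were not tested. Summed over libraries, IR and sham held 7 and 2 counts of Ly6g, 15 and 1 of Ngp, 3 and 6 of Camp, and 4 and 14 of Ltf. The low-count filter can pass a gene through its high group alone, as with Trem1 (0 to 4 counts in sham, 17 to 57 in IR). That all 7 tested markers rose is thus partly set by the filter. Of 7 monocyte and recruited macrophage markers tested, 6 rose in IR and 5 fell in IR-Ori against IR. None of the 6 Kupffer cell, 8 stellate cell or 4 B cell markers tested was called in any comparison, and 2 of 7 sinusoidal endothelium markers rose in IR. Of 5 cholangiocyte markers, Sox9 rose in IR and fell in IR-Ori against IR, and the 1 of 5 platelet markers that could be tested was not called. T and NK cell markers, cells that Cxcl9 and Cxcl10 attract, had 1 of 10 members tested and summed to 1.14 to 3.27 FPKM over all libraries. In bulk liver, more cells of a type and more RNA per cell cannot be told apart, and the part of these cells in the chemokine levels was not tested.

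Genes that process or present CXC chemokines were counted in a list of 7, 5 enzymes that cut or release proteins and 2 surface proteoglycans, all tested. In IR against sham 2 rose and 1 fell, beside 5.52% and 2.36% of all genes. Mmp8, a neutrophil collagenase, rose by 4.39 ± 0.81 (SE) on the log2 scale (adjusted p = 0.003457) and Mmp9, a gelatinase, by 1.88 ± 0.54 (adjusted p = 0.03841). Dpp4, a peptidase that trims Cxcl9, Cxcl10 and Cxcl12 and weakens them, fell by 0.65 ± 0.20 (adjusted p = 0.0474). The call of Mmp9 was lost in 8 and that of Dpp4 in 6 of 12 fits that left out 1 library. None of the 7 was called in IR-Ori against IR. Adam10 and Adam17, which release Cxcl16 from the membrane, and Sdc1 and Sdc4, which hold chemokines on the cell surface, were not called in any comparison.

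Of 18 genes of NF-kB induction, 17 were tested. In IR against sham 7 of these rose, beside 5.52% of all genes tested, and none fell, beside 2.36%. Their median log2 fold change was 0.93, beside 0.0032 for all genes. Il1b, an inflammatory cytokine, lay at 0.45 to 2.44 FPKM in sham (median 1.3), 4.41 to 15.55 in IR (median 6.46) and 0.78 to 2.98 in IR-Ori (median 1.87). All IR libraries were above both other groups, as for Cxcl2. Il1b rose by 2.62 ± 0.45 (adjusted p = 0.002161) and fell by 2.18 ± 0.44 in IR-Ori against IR (adjusted p = 0.01171). Il17ra, the receptor of interleukin 17, rose by 1.31 and fell by 0.84, and Relb, an NF-kB subunit, rose by 1.16 and fell by 1.05 (adjusted p = 0.002328, 0.04081, 0.0176 and 0.04569, in that order). These 3 of 17 were the genes of the list that fell in IR-Ori against IR, beside 3.01% of all genes. The falls of Il17ra and Relb were lost in 7 and 10 of 12 fits that left out 1 library, while that of Il1b was called in all 12. The Il1b fall did not pass with the replicate block, where 135 of 14595 genes were called lower. Nor did it pass among libraries of a mitochondrial share of at least 15% alone, where 15 of 14847 were called lower. It was also not called under 15% alone, where IR-Ori has 1 library. Without the low-count filter 1 gene of the list was called lower. Nfkbia, an NF-kB inhibitor, was not called in either comparison. Tnf, another inducer, was at 0.91 ± 0.60 and -0.97 ± 0.61 (adjusted p = 0.3834 and 0.3253), and Il17a was at 0 in every library.

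Il1r1, the receptor of Il1b, was listed with these genes and had group means in the order of Cxcl1. It lay at 7.87 to 51.88 FPKM in sham (median 26.1), 42.85 to 143.57 in IR (median 69.0) and 14.23 to 239.19 in IR-Ori (median 96.7). IR 3 was the highest IR library, IR-Ori 3 the highest and IR-Ori 5 the lowest IR-Ori library, as for Cxcl1. No comparison of Il1r1 was called (adjusted p = 0.1637 for IR and sham, 0.4831 for IR-Ori and IR, 0.4457 for IR-Ori and sham). It was singled out after its values were seen.

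Of 17 genes of interferon induction, 14 were tested. In IR against sham 2 of these rose, beside 5.52% of all genes tested, Jak2 by 0.92 ± 0.22 (adjusted p = 0.01424) and Ifngr1 by 0.66 ± 0.18 (adjusted p = 0.03384). The rise of Ifngr1 was lost in 8 of 12 fits that left out 1 library, with adjusted p up to 0.1032. In IR-Ori against IR, 3 of the 14 fell, beside 3.01% of all genes, Ifngr1, Jak2 and Ifngr2, each by 0.78 to 1.02 on the log2 scale (adjusted p = 0.02583, 0.03116 and 0.04071), and each of the 3 calls was lost in at least 6 of 12 fits that left out 1 library. Irf1, a transcription factor induced by interferon gamma, was at -0.32 ± 0.29 in IR against sham (adjusted p = 0.5356) and was not called in IR-Ori against IR. Ifng, which encodes interferon gamma, held at most 11 counts summed over a group, and Ifnb1 was at 0 in every library. The list's median log2 fold change was 0.15 in IR against sham and 0.20 in IR-Ori against IR, beside 0.0032 and -2e-04 for all genes.

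The genes whose levels ran most like each member were sought among 9908 genes, by Pearson's r of log2 CPM (counts scaled to the library size) over the 18 libraries, which share the 3 groups and their depths. They are given as a description. For Cxcl1 they were Tifa (0.95), Alpk1 (0.95) and Slc41a1 (0.94), and for Cxcl2 the chemokine Ccl2 (0.95), the chemokine receptor Ccr1 (0.94) and Ier3 (0.94). No gene was shared between the short lists of any members. Cxcl10 ran with Dusp4 (0.89), Egr2 (0.87) and Plek (0.87), and Cxcl9 with Taldo1, Rxylt1 and Fitm2 (0.85 each). For Cxcl12 the genes were Zfyve21 (0.94), Gpatch11 (0.90) and Cyp7a1 (0.90), the last encoding the rate-limiting enzyme of bile acid synthesis. Cxcl14 ran with Dyrk3, Cln8 and S100a10 (each 0.87), Cxcl16 with Hspa4l, Kcnj8 and Slc5a3 (0.90 each), and Cxcl13 with Cybb, Spon2 and Mrm2 at lower values (0.77 to 0.78).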

How the data were processed

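RNA sequencing of liver gave 18 libraries, 6 in each of 3 groups taken from the sample titles. Per the submitters' processing notes, cutadapt 1.9.1, HISAT2 2.2.1 and the build GRCm39 were used, and DESeq2 is named. No source used here names the counting tool, annotation release or strand setting. Raw counts per gene and FPKM made by the authors were deposited in 1 table. Dividing counts by exonic gene size and library total returned 100% of the FPKM within 0.0051. Biotypes came from an annotation of another build, joined by gene identifier.

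The test on counts was that of edgeR 4.0.16 (R 4.3.3). After filterByExpr (minimum count 10, minimum total 15), 14595 of 56691 genes remained. Libraries were scaled by trimmed means of M-values, and the 18 libraries shared 1 quasi-likelihood model with the group as its factor. F tests were two-sided, with Benjamini-Hochberg adjustment within a comparison and a threshold of 0.05. Standard errors are the log2 fold change divided by the square root of F. The fit was tested on simulated data. Alternatives were DESeq2 1.42.0, other size factors, no filter, nuclear genes alone, the mitochondrial share as covariate or split at 15%, a replicate block, 2 groups in the fit, limma 3.58.1 on log2(FPKM + 1) or log2(FPKM + 0.1), and leaving out each library. No 2 columns of counts were identical.

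The members and the gene and marker lists were chosen with earlier results of these data known. All members are named in all comparisons. Of other lists, ligands and receptors, up to 5 genes with the smallest p, and Tnf, Il1b, Nfkbia, Ifng and Irf1 are named, and 1 further gene of the rule is not reported here. A few further members were named to complete short lists or after their values were seen. For likeness, the 3 protein-coding genes with the highest r were taken among tested genes with a mean of at least 1 FPKM in a group (log2 CPM, prior count 2). Promoters came from RefSeq. Ratios of summed counts carry exact binomial intervals at 95%, which cover counting error alone.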

Additional observations from a re-analysis of the deposited data

Results flagged for a closer look

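In 3 of 27 checks of a member in a group, 1 library stood far from the other 5, by a gap that took most of the group's range (Dixon's test at 95%). Chance alone marks about 1 in 20 groups in such a check if values are normally distributed. Whether FPKM values are was not tested, and skewed values would be marked more often. All 3 were high values in IR-Ori, each in a different library. Cxcl10 in IR-Ori 3 was at 3.95 FPKM, and the other IR-Ori libraries lay between 0.57 and 0.87. IR-Ori 3 also held the highest Cxcl1 and Cxcl2 of its group. Cxcl13 in IR-Ori 6 was at 3.88 FPKM, and the others lay between 0.19 and 0.84. Cxcl14 in IR-Ori 2 was at 0.6 FPKM, and the others lay between 0.2 and 0.34, from 5 to 15 counts in all 6 libraries.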

How the results depend on the processing

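Depth limits Cxcl5, with 0 to 50 counts a library, and Cxcl13 and Cxcl14, with at most 140 and 65. The count of members called higher in IR against sham stayed between 2 and 4 in all settings but 1, and fell to 0 with libraries of a mitochondrial share of at least 15%. The 1 member called lower was at 0 there, with the replicate block and with limma without a filter, and at 0 to 1 without 1 library. Members called lower in IR-Ori against IR numbered 3, and 1 with the share as covariate, 1 with the replicate block, 1 with only these 2 groups in the fit, 0 with shares under 15% (1 IR-Ori library, assumed to vary like the other groups), 0 with shares of at least 15%, and 1 to 4 without 1 library. Over all genes, 806 were higher and 345 lower in IR against sham (14 to 1157 and 0 to 718 over the alternatives that kept all libraries or split them by share), and 87 higher and 439 lower in IR-Ori against IR (0 to 446 and 5 to 884). Without 1 library these ran from 442 to 920, 134 to 640, 11 to 319 and 140 to 737. NF-kB genes called numbered 0 to 9 higher in IR and 0 to 5 lower in IR-Ori against IR, interferon genes 0 to 3 and 0 to 5, and receptors 0 to 2 higher in IR. Subsets hold fewer libraries, and otherwise the cause was not tested.

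No label says what a shared replicate number marks, and not every same-numbered pair correlated above 0.1, so the numbers were not taken to pair the samples. Between IR and IR-Ori the 6 correlations ran from 0.0124 to 0.42, and 5 of 6 IR libraries matched their own number best, a hint from the data that these numbers may be shared. None of the 12 pairs with sham did, at -0.44 to 0.34. With the replicate block Cxcl12 and Cxcl14 lost their calls in IR against sham (adjusted p = 0.05294 and 0.05413), and Cxcl10 and Cxcl14 in IR-Ori against IR (0.0516 and 0.08837). Among other named genes the block also ended the calls of Mmp9 and Dpp4 in IR against sham, and of Il1b, Il17ra, Relb, Jak2 and Ifngr2 in IR-Ori against IR. Calls became fewer over all genes as well. In IR against sham the block left 453 of 806 higher and 191 of 345 lower calls by number. In IR-Ori against IR it gave 28 higher and 135 lower, beside 87 and 439 without it.

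Signs turned for members that passed no test in the comparison concerned. In IR against sham, Cxcl9 was at -0.18 and Cxcl13 at -1.43 with shares of at least 15%, and Cxcl13 at -0.0031 to 1.82 without 1 library. In IR-Ori against IR, Cxcl1 was at -0.019 with the covariate and -0.68 with shares under 15%, and Cxcl13 at 1.37 with shares of at least 15% and -1.97 to 0.11 without 1 library. In IR-Ori against sham, shares under 15% gave Cxcl10 -0.95, Cxcl12 0.23, Cxcl13 -0.039 and Cxcl14 -0.40, and shares of at least 15% gave Cxcl13 -0.063 and Cxcl16 -0.13. The replicate block gave Cxcl10 -0.058, Cxcl13 -0.17 and Cxcl16 -0.024, and nuclear genes alone gave Cxcl16 -0.0059. Limma gave Cxcl10 -0.027 on log2(FPKM + 1), with and without a filter, and Cxcl10 -0.15 and Cxcl16 -0.0036 on log2(FPKM + 0.1). Without 1 library, Cxcl10 ran from -0.64 to 0.37, Cxcl13 from -0.92 to 0.85, Cxcl14 from -0.28 to 0.31 and Cxcl16 from -0.11 to 0.071.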
